A study of Homo sapiens with 23 samples.

Results

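The genes described here are 9 core pluripotency genes, POU5F1 (which encodes OCT4), SOX2, NANOG, LIN28A, LIN28B, SALL4, DPPA4, PRDM14 and KLF4. All 9 were found by gene symbol and passed the filter on low counts, out of 36085 genes with values and 16371 genes tested. Each was followed through 6 RNA-seq libraries and through the OCT4, YY1 and H3K9me3 peaks called within 20 kb of its transcription start sites (TSSs) in 11 ChIP-seq lists.

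The cells were NCCITs, a human embryonal carcinoma line derived from a germ cell tumor with pluripotent features. SCi-NCCITs are NCCITs that carry a tetracycline-inducible dCas9-KRAB cassette and 2 constitutive single guide RNAs directed at SVAs, a family of hominoid retrotransposons. Per the study's text, these guides also match LTR5Hs, a family of endogenous retrovirus repeats. dCas9-KRAB is a Cas9 that binds without cutting, fused to a repressor domain through which H3K9me3, a mark of silenced chromatin, is deposited. SCi-NCCITs were kept without doxycycline or given 2 ug/mL for 72 hours, and the study asked how repression of SVAs changes gene expression and factor binding. RNA was sequenced from 3 libraries without and 3 with doxycycline. YY1 and H3K9me3 were profiled in 2 libraries of each condition, OCT4 in 1 of each, and H3K9me3 also in 1 library of NCCITs without the cassette. Every SCi-NCCIT library, treated or not, carried both the cassette and the guides. The lines were selected with antibiotics as stable clones, and none of the libraries came from cells given doxycycline without the cassette or the guides, so effects of the drug, of dCas9-KRAB at SVAs and of dCas9-KRAB at LTR5Hs cannot be told apart. The labels do not say whether replicates were separate cultures, and p-values therefore measure the spread between these libraries, which may be technical.

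OCT4 and SOX2 bind DNA side by side at many enhancers of pluripotent cells, often on a composite site in which a SOX element adjoins an OCT element, and with NANOG they occupy one another's regulatory DNA. SALL4, PRDM14 and KLF4 are further transcription factors of the network, and DPPA4 is a chromatin-associated protein of early embryos and germ cells. LIN28A and LIN28B bind RNA and hold back maturation of the let-7 microRNAs, whose targets include growth genes of embryonic cells. YY1 is a widely expressed zinc finger factor found at promoters and enhancers.

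Sequences under the strongest OCT4 peaks without doxycycline are shown first, because they are where the factor encoded by one member was placed beside the others. Each runs 5′ to 3′ on the plus strand of hg19 and spans 101 bases centered on the peak summit. Capitals mark the octamer ATGCNAAT or the SOX-OCT composite TTGTNATGC, on either strand. The SOX2 sequence lies at chr3:181433889-181433989, 4226 bp downstream of the TSS and outside protein-coding genes.
SOX2: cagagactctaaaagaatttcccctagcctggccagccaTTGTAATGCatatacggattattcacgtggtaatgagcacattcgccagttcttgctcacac
The NANOG sequence lies at chr12:7941837-7941937, at -111 bp from the main TSS and in an intron of a longer NANOG transcript.
NANOG: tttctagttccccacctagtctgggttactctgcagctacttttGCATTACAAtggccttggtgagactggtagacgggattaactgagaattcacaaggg
The DPPA4 sequence lies at chr3:109074686-109074786, at -18343 bp, outside protein-coding genes.
DPPA4: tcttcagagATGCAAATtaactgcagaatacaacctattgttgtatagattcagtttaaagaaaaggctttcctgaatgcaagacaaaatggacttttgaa
The SALL4 sequence lies at chr20:50416239-50416339, 2771 bp inside the gene, in an intron.
SALL4: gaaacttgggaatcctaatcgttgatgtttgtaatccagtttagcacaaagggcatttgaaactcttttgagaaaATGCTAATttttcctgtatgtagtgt
The KLF4 sequence lies at chr9:110235243-110235343, 16757 bp downstream of the TSS and outside protein-coding genes.
KLF4: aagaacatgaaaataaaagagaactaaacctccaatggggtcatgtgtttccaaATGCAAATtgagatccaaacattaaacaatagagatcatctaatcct
The LIN28A sequence lies at chr1:26756381-26756481, 19123 bp from the TSS and just past the end of the gene. It is shown as a strong peak in which neither motif was matched.
LIN28A: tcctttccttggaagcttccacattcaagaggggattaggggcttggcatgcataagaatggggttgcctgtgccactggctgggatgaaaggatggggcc

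The strongest OCT4 peak held one of both motifs at 5 of the 8 genes that had a peak. Over all 53 OCT4 peaks around these genes without doxycycline, 8 (15.1%) held a match, and over all 50582 OCT4 peaks that could be read the share was 15.3%. Among the 1000 OCT4 peaks of highest fold enrichment it was 39.3%. Windows of the same length placed 1000 bp away from the summits held the octamer in 1.53% and the composite in 0.215%, against 9.94% and 6.23% at the summits. A match describes the letters in the window and does not by itself mark a bound site.

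YY1 sequences are given for the 3 genes whose strongest YY1 peak held the YY1 motif, with CCATNTT or its reverse AANATGG in capitals. Both LIN28B sequences lie in an intron of a longer LIN28B transcript, at chr6:105389780-105389880 (-15152 bp from the main TSS) and chr6:105391846-105391946 (-13086 bp).
LIN28B upstream: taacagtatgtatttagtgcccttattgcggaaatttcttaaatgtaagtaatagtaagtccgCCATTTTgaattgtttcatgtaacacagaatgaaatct
LIN28B nearer: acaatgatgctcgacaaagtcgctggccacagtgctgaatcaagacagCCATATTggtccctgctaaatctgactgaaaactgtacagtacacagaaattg
The SALL4 YY1 sequence lies at chr20:50418022-50418122, 988 bp inside the gene, in a non-coding exon.
SALL4: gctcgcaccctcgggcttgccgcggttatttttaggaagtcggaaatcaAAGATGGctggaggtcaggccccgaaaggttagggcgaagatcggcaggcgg
At DPPA4 the YY1 summit lay 4 bp from the TSS, and only the 21 bases around the match, at chr3:109056364-109056384, are given.
DPPA4: tgcttccAAAATGGcccctgc
The YY1 motif was matched in 11 of 34 YY1 peaks around the genes (32.4%) in the first library without doxycycline, against 34.1% of all 56110 YY1 peaks read and 10.2% of windows 1000 bp away. It was matched at the strongest YY1 peak of 3 of the 8 genes, and in 76.3% of the 1000 YY1 peaks of highest fold enrichment.

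All 9 genes were expressed in every RNA library. Levels are given here in TPM, a scale corrected for library size and transcript length on which genes can be set side by side. SOX2 was the highest without doxycycline, at 348 ± 26.4 TPM (SD, n = 3), and LIN28A followed at 314 ± 6.28 TPM. POU5F1 stood at 206 ± 38.6 TPM and DPPA4 at 196 ± 13.5 TPM. These 4 genes lay between the 96.19th and 98.12th percentiles of the genes tested. A lower tier held NANOG at 47.0 ± 6.64 TPM, PRDM14 at 43.6 ± 6.88 TPM, SALL4 at 35.2 ± 2.62 TPM, LIN28B at 28.4 ± 3.72 TPM and KLF4 at 27.6 ± 2.09 TPM.

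The library ranges of neighbors in this order overlapped for SOX2 and LIN28A, POU5F1 and DPPA4, NANOG and PRDM14, PRDM14 and SALL4, and LIN28B and KLF4, so their order was not resolved. The steps from LIN28A to POU5F1, from DPPA4 to NANOG and from SALL4 to LIN28B exceeded the spread. The last of these was narrow, with 32.3 TPM as the lowest SALL4 value and 32.0 TPM as the highest LIN28B value. With doxycycline the means of POU5F1 and DPPA4 changed places, as did those of PRDM14 and SALL4.

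**Figure D1:**
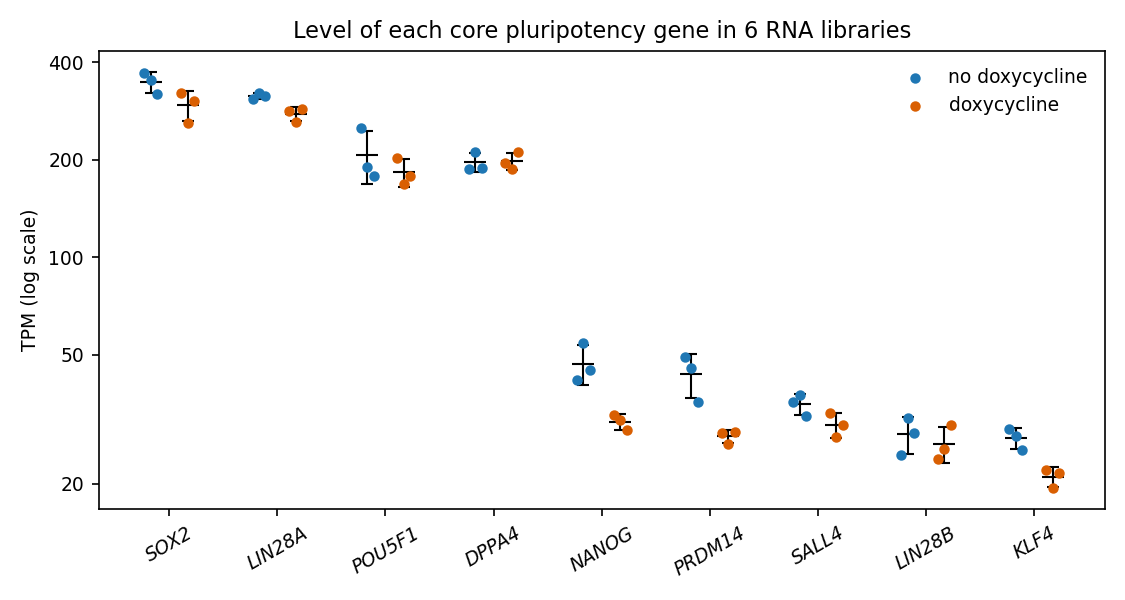
Level of each gene in TPM (log axis) in the 3 libraries without doxycycline and the 3 with it; points are libraries, bars the mean and SD. SOX2, LIN28A, POU5F1 and DPPA4 sit above 168 TPM in every library and the other 5 genes below 55 TPM.

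The comparison of doxycycline with none asked whether repression directed at SVAs altered the pluripotency program. NANOG, PRDM14, KLF4 and SALL4, 4 of the 9 genes, fell. PRDM14 fell by 34.2% and SALL4, at the other end, fell by 14.3%. No gene of the 9 rose in edgeR, also not at an unadjusted p under 0.05, or in DESeq2. In all, 8 of the 9 log2 fold changes were below 0, with a median of -0.19, against 50.4% of all genes tested below 0 and a median of -0.00252. The test was edgeR's quasi-likelihood test over all 16371 genes with Benjamini-Hochberg adjustment, and a gene was called at an adjusted p under 0.05. By that rule 17.5% of all genes tested were called, 8.48% as lower and 8.97% as higher, so 4 of 9 lower stands beside 8.48%. With POU5F1, SOX2, LIN28A, LIN28B and DPPA4 not called, the counts do not show that the program as a whole moved. Per-library values below are CPM (counts scaled to library size), used within a gene only.

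NANOG, the homeodomain factor of the core triad, measured 62.2, 62.4 and 59.9 CPM without doxycycline and 42.5, 41.6 and 40.1 CPM with it. The 2 groups did not overlap and were separated by far more than the spread within either. NANOG fell by 32.6% (log2 fold change -0.57, SE 0.0522, adjusted p = 0.000136). In every alternative fit and with each library left out its log2 fold change lay between -0.59 and -0.55 and remained called.

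PRDM14, a PR-domain repressor that recruits Polycomb proteins in embryonic stem cells, measured 80.2, 73.7 and 59.6 CPM without doxycycline and 47.9, 45.5 and 46.4 CPM with it. All treated libraries were below all untreated ones, and the untreated libraries were the more scattered. PRDM14 fell by 34.2% (log2 fold change -0.60, SE 0.0966, adjusted p = 0.00342). Leaving out single libraries moved the log2 fold change between -0.72 and -0.51, and the gene was called each time.

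KLF4, a zinc finger factor used in reprogramming to pluripotency, measured 57.5, 51.9 and 49.6 CPM without and 42.6, 39.1 and 40.5 CPM with doxycycline. The groups did not overlap. KLF4 fell by 22.9% (log2 fold change -0.37, SE 0.0679, adjusted p = 0.0061), and it was called in every alternative.

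SALL4, a zinc finger factor that associates with the NuRD complex, measured 99.5, 108 and 95.7 CPM without and 91.4, 83.1 and 85.3 CPM with doxycycline. The groups did not overlap, but 95.7 and 91.4 CPM were close. SALL4 fell by 14.3% (log2 fold change -0.22, SE 0.064, adjusted p = 0.0417). The call was lost on counts scaled by transcript length (log2 fold change -0.16, adjusted p = 0.21). Leaving out single libraries took it past the threshold in 5 of 6 cases, with adjusted p from 0.0512 to 0.157. The exception was doxycycline replicate 1, without which it was 0.0444.

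SOX2, the HMG-box partner of OCT4, measured 673, 623 and 580 CPM without and 597, 493 and 549 CPM with doxycycline. The groups overlapped, since the first treated library was above the third untreated one. The log2 fold change was -0.19 (SE 0.0808, 95% interval -0.38 to -0.01, adjusted p = 0.132), and SOX2 was not called.

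POU5F1 measured 240, 177 and 171 CPM without and 199, 170 and 170 CPM with doxycycline. One untreated library, replicate 1, held the highest value and the shallowest sequencing. The log2 fold change was -0.12 (SE 0.123, 95% interval -0.40 to 0.15, adjusted p = 0.528), and without that library it was 0.04 with the sign turned. A fall of the size seen for NANOG lay outside the interval.

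LIN28A, the more abundant of the LIN28 pair, measured 827, 836 and 841 CPM without and 784, 734 and 750 CPM with doxycycline. The 2 groups did not overlap, as for 37% of all genes tested. The log2 fold change was -0.14 (SE 0.0497, 95% interval -0.25 to -0.03, adjusted p = 0.0794), so LIN28A was not called, whereas DESeq2 gave an adjusted p of 0.0278.

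LIN28B measured 94.9, 120 and 113 CPM without and 95.3, 106 and 116 CPM with doxycycline, and the groups overlapped widely. Its log2 fold change was -0.05 (SE 0.0968, 95% interval -0.27 to 0.17, adjusted p = 0.749). The sign turned without untreated replicate 2 (0.02) and without treated replicate 1 (0.01).

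DPPA4 measured 302, 309 and 297 CPM without and 321, 302 and 315 CPM with doxycycline. It was the one gene of the 9 with a value above 0, at a log2 fold change of 0.05 (SE 0.0506, 95% interval -0.07 to 0.16, adjusted p = 0.556), and the groups overlapped.

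**Figure D2:**
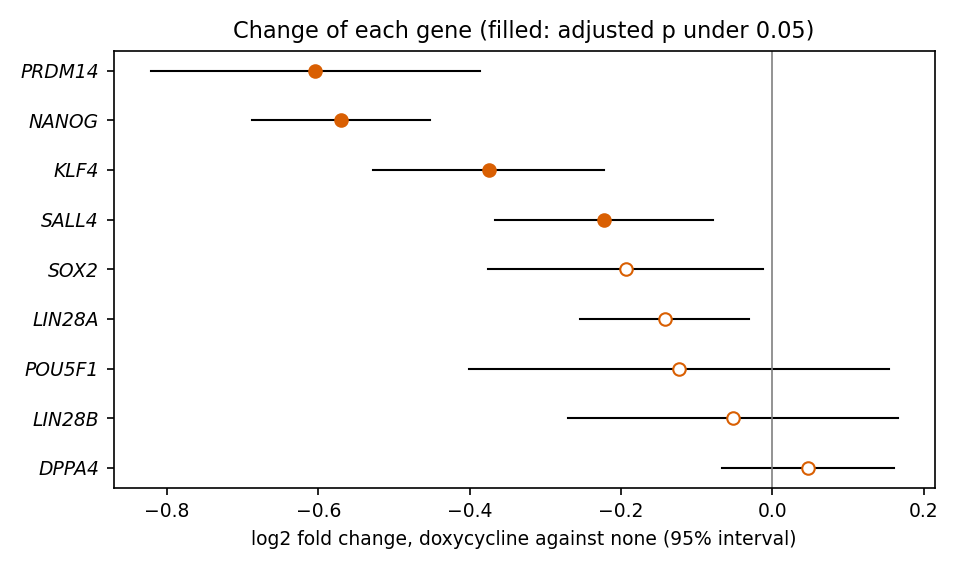
Log2 fold change of each gene with doxycycline against none, with the 95% interval from edgeR's fit; filled points were called. PRDM14, NANOG, KLF4 and SALL4 are filled, at -0.60, -0.57, -0.37 and -0.22, and DPPA4 alone lies above 0.

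Transcript estimates divided these levels among isoforms. SOX2 had 1 transcript, and POU5F1 came almost wholly from ENST00000259915.13, which held 99.3% ± 0.184 of its TPM without and 99.2% ± 0.0592 with doxycycline. LIN28A was split between ENST00000254231.4, with 67.6% ± 1.78 without and 69.0% ± 8.70 with doxycycline, and ENST00000326279.11. NANOG was divided over 4 transcripts. ENST00000526286.1 held 38.4% of its TPM in both conditions (SD 2.57 and 5.09), and ENST00000526434.2 held 28.5% ± 3.03 and 28.7% ± 3.75. The full-length ENST00000229307.9 held 25.9% ± 4.48 and 24.9% ± 1.55.

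The NANOG fall was seen on each of these 3 transcripts, with log2 fold changes of -0.58 (SE 0.0626) for ENST00000229307.9, -0.56 (SE 0.167) for ENST00000526286.1 and -0.52 (SE 0.255) for ENST00000526434.2. Only the first of them was called (adjusted p = 0.0237), and it was the only one of 30 member transcripts tested that was, beside 0.661% of all 66421 transcripts tested. That call was lost with each library left out. The remaining NANOG transcript, ENST00000541267.5, had a log2 fold change of -0.34 (SE 0.388), its TPM ranges overlapped, and it was not called. At the other genes that fell, the transcripts with the largest counts had log2 fold changes of -0.61 for PRDM14 (adjusted p = 0.0919), -0.42 for KLF4 (0.144) and -0.23 for SALL4 (0.253), near those of their genes. Division of reads among overlapping isoforms is uncertain, and a transcript that was not called is not shown to be unchanged. The transcript test recovered none of the changes built into simulated data, so counts of transcripts called, or lost when a library was left out, say little about the transcripts.

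Copies of these genes within the annotation used took few reads. POU5F1B, an intronless copy of POU5F1, stood between 0.552 and 0.772 TPM. It is near-identical in places, so reads could have been divided between them. Copies outside that annotation, such as transcripts of alternate haplotypes, were not counted. Whether they took reads of POU5F1, and so altered its level or fold change, was not tested.

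Among 40 other genes of the pluripotency network, 38 were tested, 10 fell and 4 rose, with a median log2 fold change of -0.10. TDGF1, a co-receptor for NODAL, fell from 193 ± 6.96 to 88.1 ± 6.43 CPM (log2 fold change -1.13, adjusted p = 8.32e-06). VRTN and ZSCAN10, transcriptional regulators, fell by 0.93 and 0.85 on the log2 scale. L1TD1, an RNA-binding protein derived from a LINE-1 element, fell from 766 ± 41.4 to 499 ± 26.2 CPM. The most abundant gene of the list, FGFR1, a fibroblast growth factor receptor, was at 478 TPM and was not called (log2 fold change -0.03).

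Markers of the naive state gave 3 falls and 1 rise among 14 tested of 16, with a median of -0.11. SUSD2, a surface marker of naive cells, fell from 26.6 ± 2.15 to 10.1 ± 0.709 CPM (log2 fold change -1.39). ZFP42 (REX1) fell by 0.40 and TFAP2C by 0.29 on the log2 scale. KLF5 rose by 0.66 on the log2 scale of counts, while its mean TPM was 7.48 without and 7.40 with doxycycline.

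Markers of the primed state gave 3 rises and 2 falls among 12 tested of 14, with a median of 0.05. THY1, a surface glycoprotein, rose from 28.5 ± 4.16 to 51.9 ± 5.64 CPM (log2 fold change 0.88). DNMT3B, a de novo DNA methyltransferase, fell by 0.60 on the log2 scale. OTX2 and SALL2 were the other genes that rose.

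Of 18 let-7 targets and LIN28 partners, 2 rose and 1 fell, with a median of -0.03. NR6A1, an orphan nuclear receptor, rose by 0.64, ARID3B rose by 0.22 and HMGA1, a chromatin protein at 663 TPM, fell by 0.24 on the log2 scale. The most abundant let-7 target after it, IGF2BP2 at 285 TPM, was not called.

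Of 20 genes for NuRD, BAF, Polycomb and other PRDM14 partner proteins, 3 fell and 2 rose, with a median of -0.07. They are called the NuRD, BAF and Polycomb list below. EZH2, the Polycomb methyltransferase, fell by 0.38 and SMARCC1, a BAF subunit, by 0.27 on the log2 scale, while MBD3, a NuRD subunit, rose by 0.24. RBBP4 at 434 TPM and HDAC1 at 320 TPM were the most abundant and were not called. Called shares in these lists stand beside the 17.5% of all genes, and some genes belong to more than 1 list.

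**Figure D3:**
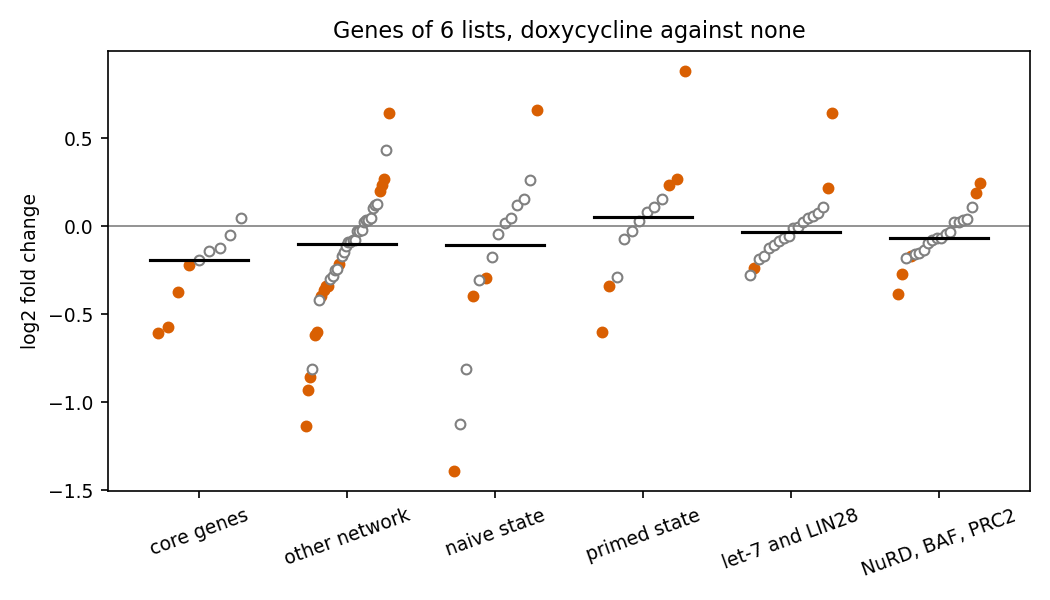
Log2 fold change of every tested gene of the core genes and of 5 other lists, in rank order within a list; filled points were called and lines are medians. The medians lie between -0.19 for the core genes and 0.05 for the primed list.

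The labelled cell type was checked against marker lists. KRT8 and KRT18, keratins of embryonal carcinoma, stood at 462 and 453 TPM without doxycycline, GDF3 at 51.6 TPM, TNFRSF8 (CD30) at 4.49 TPM and CDH1 (E-cadherin) at 4.17 TPM. Of the 8 embryonal carcinoma markers 4 fell, TDGF1, DNMT3B, GDF3 and KRT19, beside 8.48% of all genes lower, and the summed level of the 8 ranged over 1295 to 1441 TPM without and 1159 to 1243 TPM with doxycycline. SOX17, TBXT, AFP, CER1, SOX1, PAX6, GATA4, FOXA2, CGA and ELF5 were below 1 TPM in the mean of both conditions. HAND1, on the mesoderm and trophoblast lists, was not low, at 124 TPM without and 116 TPM with doxycycline. Some single differentiation markers were higher with doxycycline. NES rose from 98.8 to 133 TPM, MIXL1 from 1.65 to 2.33 TPM, GATA6 from 0.432 to 1.05 TPM and NEUROG2 from 0.243 to 0.443 TPM. GATA6 and NEUROG2 began below 1 TPM. Log2 fold changes were below 0 for 1 of 5 neural, 2 of 6 mesoderm, 0 of 3 endoderm and 2 of 5 trophoblast markers tested.

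Summed neural ectoderm markers ranged over 92.7 to 106 TPM without and 115 to 155 TPM with doxycycline, and 2 of 5 tested rose. This sum was mostly NES, since 5 of the 6 listed markers were below 1 TPM without doxycycline. Endoderm and yolk sac markers ranged over 0.79 to 1.19 TPM and 1.65 to 1.94 TPM, and 1 of 3 tested rose. Mesoderm markers ranged over 109 to 150 TPM and 116 to 127 TPM, and 1 of 6 tested rose. HAND1 made up most of the mesoderm sum and was counted in the trophoblast sum as well. For trophoblast the ranges were 542 to 639 TPM and 498 to 543 TPM, where TFAP2A, the most abundant, was not called (log2 fold change -0.18, adjusted p = 0.0729), and for germ cell markers 122 to 139 TPM and 107 to 133 TPM, with 2 of 6 tested lower. Counts of rises stand beside 8.97% of all genes tested and counts of falls beside 8.48%, and the lists are short. In bulk RNA, fewer cells of a type and less RNA per cell cannot be told apart, and the part of these markers in the falls was not tested.

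OCT4 peaks were found within 20 kb of a TSS of 8 of the 9 genes, in the list without and in the list with doxycycline. The exception in both was POU5F1 itself. Across all genes tested the shares were 76% without and 40.1% with doxycycline, and the lists held 50775 and 23352 peaks. Peak height is given as fold enrichment, the ratio of the pileup at the peak to its local expectation, which depends on depth as well as on binding. Positions are relative to the main TSS in the direction of the gene, negative upstream, and may pass 20 kb where another annotated TSS lies nearer.

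The highest OCT4 peak around these genes lay at SOX2, at 4226 bp, with a fold enrichment of 68.5 without and 45.4 with doxycycline. SOX2 had 14 OCT4 peaks without doxycycline, more than any other of the 9 genes, and 7 with it. A second peak at -3740 bp stood at 18.7 and 9.85.

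At NANOG the peak at -111 bp stood at 53.1 in both lists. Fold enrichment depends on depth as well as on binding, so equal values do not show that binding was unchanged. NANOG RNA fell by 32.6% between the same conditions, in other libraries, and a link between this peak and the fall was not tested. A weaker NANOG peak at -16452 bp stood at 9.77 and 8.29. Of 8 NANOG peaks without doxycycline, 4 sites were in both lists.

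LIN28A had 1 OCT4 peak without doxycycline, at 19123 bp, with 28.2 and 26.5. At DPPA4 the peak at -18343 bp stood at 26.6 and 14.1, and one at -119 bp at 11.6 and 5.27. PRDM14 had 7 peaks without and 2 with doxycycline, the highest at -3671 bp with 18.3 and 14.1. The PRDM14 site near 9964 bp went the other way, with 8.78 and 12.2.

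At SALL4 the intronic peak at 2771 bp stood at 15.5 without and 5.58 with doxycycline. At LIN28B the highest OCT4 peak, at -4241 bp, stood at 10.6 and 5.65. KLF4 had the weakest of these maxima, 8.25 and 5.10 at 16757 bp. A peak at -176 bp of KLF4, with 5.93, was listed without doxycycline only.

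Around the 9 genes there were 53 OCT4 peaks without and 25 with doxycycline. Of the 53, 23 (43.4%) overlapped a peak of the doxycycline list by at least 1 bp, against 40.1% of all OCT4 peaks. The fold enrichment was lower with doxycycline at 20 of those 23 (87%), against 85.1% of all OCT4 peaks in both lists. Both shares were near those of the whole lists. With 1 library a condition there was no test of the difference, and depth and binding cannot be told apart.

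YY1 peaks lay within 20 kb of the same 8 genes in all 4 YY1 lists. The shares over all genes tested were 90.1% and 90.8% without and 93.8% and 95.1% with doxycycline, so nearly every gene had one. The lists held 56370 and 76098 peaks without and 82005 and 115673 with doxycycline.

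The highest YY1 site lay at the TSS of DPPA4, with 57.9 and 55.3 without and 72.5 and 76.8 with doxycycline. Its 2 treated values were above its 2 untreated ones, as at 8 of 26 YY1 peaks around the genes that were in all 4 lists. That share, 30.8%, stands beside 40.6% of the 37588 such peaks genome-wide. Both treated values were below both untreated ones at 1 of 26, beside 2.43%. A total of 26 of 34 (76.5%) were in all 4 lists, beside 66.7% of all.

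LIN28B had a pair of strong YY1 sites in the intron of its longer transcript. The one centered at -15146 bp stood at 35.1 and 45.5 without and 40.0 and 51.2 with doxycycline, and the one at -13098 bp at 26.4 and 51.0 and at 29.1 and 61.8. In both pairs replicate 2 was higher than replicate 1 by more than the conditions differed. A site near 118 bp of LIN28B had a summit in 3 libraries, with 13.7 without and 15.6 and 18.4 with doxycycline. In the first untreated library a wider peak covered this position, with its summit at -669 bp and a fold enrichment of 13.5.

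SALL4 had YY1 sites at 986 bp, with 22.3 and 21.6 without and 24.0 and 34.0 with doxycycline, and at 24057 bp, with 9.26 and 23.5 and with 13.4 and 21.0. LIN28A had one at 1573 bp, with 16.8 and 5.16 without and 26.4 and 12.99 with doxycycline. At SOX2 the highest was at 1358 bp in the coding sequence, with 12.96 and 8.30 and with 12.2 and 10.0. The conditions overlapped at 3 of these 4 sites.

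NANOG, PRDM14 and KLF4 also had YY1 peaks near their starts. This did not set them apart. Within 5 kb of a TSS, YY1 peaks lay at 8 of the 9 genes in all 4 lists, beside 78.4% to 86.5% of all genes tested. At KLF4 a site at -357 bp stood at 7.99 and 7.38 without and 9.52 and 9.23 with doxycycline, and one at 2254 bp at 10.8 and 9.01 and at 11.8 and 7.88. At PRDM14 a site at -797 bp stood at 8.91 and 8.91 without and 9.19 and 12.2 with doxycycline. NANOG had a site at 3301 bp, with 4.75 and 12.8 and with 8.94 and 9.84, and one near -346 bp with a summit in 3 of 4 lists. In the second untreated list a peak with its summit at -765 bp covered that position, at a fold enrichment of 5.66. The KLF4 and PRDM14 sites and the NANOG site at 3301 bp had summits in all 4 lists.

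OCT4 and YY1 shared peaks at 7 of the genes, all but POU5F1 and LIN28A. Of the 53 OCT4 peaks without doxycycline, 21 (39.6%) overlapped YY1 peaks of both untreated libraries, against 24.3% of all 50775 OCT4 peaks. Among them were the highest OCT4 peaks of SOX2, NANOG, DPPA4, SALL4 and LIN28B, whose OCT4 summits lay 120, 339, 95, 278 and 208 bp from the nearest YY1 summit. The highest OCT4 peaks of LIN28A, PRDM14 and KLF4 were not among them. The 53 peaks were kept for lying within 20 kb of a TSS and the 50775 were not, while nearly every gene had a YY1 peak there. The shares are thus not matched for distance from a TSS. Some of the 21 also overlapped the same YY1 peak, as at DPPA4.

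H3K9me3 peaks were found near 6 and 3 of the 9 genes without doxycycline, near 6 and 2 with it, and near 2 in NCCITs without the cassette. The shares over all genes tested were 70.3% and 65.3%, 64.3% and 66.1%, and 59.7%. Replicates thus differed more than conditions, and the first replicate of each condition listed peaks near SOX2, NANOG and LIN28A that the second did not. LIN28B and SALL4 were near a peak in all 5 lists. At SALL4 the highest H3K9me3 peak stood at 6.502 and 6.95 without doxycycline (summits at 22944 and 22933 bp), at 6.57 and 6.29 with it (22298 and 22871 bp) and at 4.72 in NCCITs (22024 bp). At LIN28B all H3K9me3 sites stood between 3.39 and 5.37 and lay between -26052 and 5990 bp. No H3K9me3 peak lay near DPPA4 or KLF4 in any list. Near NANOG a peak was listed in the first library of each condition, and near PRDM14 in both untreated libraries and the first treated one. These are called peaks, and the H3K9me3 signal itself was not compared between conditions.

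POU5F1 had no OCT4, YY1 or H3K9me3 peak in any of the 11 lists, as 1.6% of all genes tested. The nearest peak was 45935 bp from its main TSS, in a stretch of 148747 bp without any peak at chr6:31035647-31184393. The 11 lists together held 43 peaks within 1 Mb of it, while the median tested gene had 833 and the other 8 members had 767 to 1655. Of 72 tested genes within 2 Mb of POU5F1, 66 were also without a peak within 20 kb in any list. The region is the major histocompatibility complex, for which hg19 holds alternate haplotype contigs beside chromosome 6. The lists held 67 peaks on 6 such contigs, and reads had been filtered on mapping quality. The part of that filter in the empty stretch was not tested, and the absence of peaks is not evidence that the POU5F1 locus was unbound.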

How the data were processed

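Members and gene lists were chosen with earlier results of these data known, and no list is independent evidence. Per the study's methods, ChIP-seq reads were aligned to hg19 with BWA, filtered on mapping quality and stripped of duplicates. The submitters' processing notes also name kallisto and deepTools, without versions. The deposited peak lists, 1 per library, give fold enrichment (a ratio), -log10 p and -log10 q as the authors' peak caller wrote them. Peaks were called at a 5% false discovery rate, and the caller is not given in the sources used here. RNA files hold estimated counts and TPM per transcript, as the authors obtained them with kallisto. No read depth of the ChIP-seq libraries was given.

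Transcripts were assigned to genes by identifier with GENCODE v44 lifted to GRCh37: 166506 of 188753 transcripts (88.2%) and 95.85 to 95.96% of counts. Transcripts outside this annotation, such as alternate haplotype copies, were not used here. Summed estimated counts, rounded to whole numbers, were 14683468, 31905915 and 43443469 without and 44680610, 47862394 and 46639141 with doxycycline, so untreated replicate 1 is the least precise. Genes passing filterByExpr were tested with edgeR 4.0.16 (TMM, quasi-likelihood, Benjamini-Hochberg 0.05) in R 4.3.3 on the 3 and 3 libraries, and scripts were tested on simulated data, where the gene test recovered most of the changed genes and the transcript test none of the changed transcripts. Alternatives were DESeq2 1.42.0, DESeq2 size factors, no filter, at least 10 counts in every library, a replicate block, length-scaled counts and each library left out. All scaling alternatives left the median of all genes within 0.01 (log2) of 0.

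The main TSS is that of the transcript with the largest mean estimated count. Peaks within 20 kb of any annotated TSS were kept, at 1 bp overlap or more, and summits of 1 antibody within 300 bp were joined into sites. Peak alternatives were -log10 q of at least 5, 5 kb, the main TSS only and equal numbers of peaks per library. Sequences were read from GRCh37 with pysam 0.24.0. None is shown for PRDM14. Text names the 9 genes, their copies and, per list, up to 3 called genes of largest change and 2 of highest TPM. Others (OTX2, SALL2 and the cell type markers) were named after their values were seen. One gene that the rule would name is not reported here. The HiChIP table of 6 samples was not used, since its 16 value columns name categories and not conditions.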

Additional observations from a re-analysis of the deposited data

How the results depend on the processing

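Among the 9 genes the number called ranged over 3 to 5 under every alternative, all of them lower. Most results stayed on their side of the threshold. NANOG, PRDM14 and KLF4 were called throughout, and LIN28A was called by DESeq2 only (-0.14). SALL4 was not called on length-scaled counts (-0.16), nor in most fits that left out a single library, as given above. Signs turned, all uncalled, when single libraries were left out: POU5F1 without untreated replicate 1 (range -0.2141 to 0.0425; main transcript -0.2063 to 0.0411), LIN28B without untreated replicate 2 (0.0201) or treated replicate 1 (0.012), its main transcript without those (0.0347 and 0.0212) or untreated replicate 3 (0.0049; lowest -0.1387), and the main transcript of DPPA4 without treated replicate 1 (-0.0055; highest 0.0721). The cause was not tested.

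Length-scaled counts gave 1877 genes called over all genes against 2858, 3 of the primed list and 2 of the NuRD, BAF and Polycomb list; without a filter that list gave 3. Leaving out 1 library gave 1396 (without treated replicate 2) to 3259 genes called, also few without untreated replicates 2 and 3 or treated replicate 1 (1469, 1748 and 1749). The same gave 3 to 5 in the primed list (3 without untreated replicate 2 or 3), 1 to 5 in the let-7 list (1 without treated replicate 1 or 2, 5 without untreated replicate 1) and 1 to 4 in the NuRD, BAF and Polycomb list (1 or 2 without any library but untreated replicate 1). It gave 33 to 70 transcripts against 439.

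Replicate numbers are shared by both conditions, and whether they pair the samples is not given. Deviations of same-numbered libraries correlated weakly, at 0.128, 0.0799 and -0.000942. Libraries numbered 1 and 2 correlated best with their own number, and those numbered 3 did not. This does not settle whether the samples were paired, and the main fit used no pairing. With a replicate block 3316 genes were called, 4 of the 9 genes still among them, and 13 transcripts, with the NANOG transcript no longer called (-0.58).

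YY1 stayed near 8 of the 9 genes under each peak alternative. So did OCT4 except within 5 kb of a TSS, where it was near 7 without (58% of all genes tested) and 6 with doxycycline (20.9%). Within 5 kb, H3K9me3 was near 2 and 1 genes without doxycycline (37.1% and 33.3% of all), 1 and 1 with it (32.4% and 34.4%) and 1 in NCCITs (28.4%). Around the main TSS only it was near 1 in the second doxycycline library (55.5%) and 0 in NCCITs (48.4%), and at a -log10 q of at least 5 near 3 in the first doxycycline library (51.6%). Depths of the ChIP-seq libraries are unknown, and OCT4 had 1 library a condition.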
